A study of Mus musculus with 39 samples.

Results

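The genes described here encode the factors that start and extend protein chains on the ribosome. They are the protein-coding genes of the count table whose symbol starts with Eif1, Eif3, Eif4, Eif5, Eif6 or Eef, without the eIF4E-binding repressors (Eif4ebp) and the eIF4E transporter (Eif4enif). The rule uses names and no measured value, and it found 49 genes among 43430 rows. They were sorted into roles by symbol, so a member need not act in the role it is listed under. The lists hold 8 factors of scanning and subunit joining, 14 genes of eIF3 subunits and 12 members of the eIF4 group. The others are 2 eIF5A genes, 8 elongation factors and 5 enzymes that modify elongation factors.

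Transcripts were measured by RNA sequencing in 39 libraries of sorted lung cells of C57BL/6J mice. Monocytes came from the lungs of naive mice (20 libraries), and Siglec F-low alveolar macrophages, which the series describes as derived from monocytes, came from lungs made fibrotic with the injurious drug bleomycin (19 libraries). Each cell type was taken from young and old mice that had received ISRIB, a small molecule that acts on the factor eIF2B and blocks the integrated stress response, or vehicle, labelled Saline. Each of the 8 groups held 5 libraries, except the young ISRIB macrophages with 4. Young mice were 8 to 12 weeks old and old mice over 18 months per the sample labels, whereas the series text gives 3 to 5 and 18 to 24 months. After bleomycin, daily ISRIB or vehicle began on day 7 and sorting took place on day 21, and for naive mice the labels give no days. No library came from macrophages of uninjured lungs or monocytes of injured lungs, so cell type and bleomycin cannot be told apart. The labels do not say whether a library came from 1 mouse or from several, so p-values measure the spread between libraries.

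In the first steps of translation, eIF1, eIF1A, eIF3 and eIF5 load the small ribosomal subunit, while eIF4E binds the mRNA cap, eIF4G bridges the cap to the ribosome and the helicase eIF4A unwinds the leader. After the start codon is found, eIF5B joins the large subunit, eEF1A then brings aminoacyl-tRNA to the ribosome and eEF2 moves the ribosome along the mRNA. The kinase eEF2K phosphorylates eEF2 and slows elongation, and eIF5A, which carries the modified residue hypusine, helps the ribosome through stretches where it stalls. Many mRNAs of this machinery carry a run of pyrimidines at their start, the 5′ terminal oligopyrimidine (TOP) motif, and their translation follows the kinase mTOR. Macrophages that differentiate from monocytes in an injured lung are known to grow in size and to secrete large amounts of protein.

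The libraries held between 4595331 and 16056708 counts each (median 8628240). The shallowest library, young Saline monocyte replicate 4, stood apart, with 12324 genes detected and 4.36% of its counts in ribosomal protein genes. The 10 macrophage marker genes summed to 16840 to 24290 CPM, counts scaled to a common library size, in the macrophage libraries and 2064 to 4828 CPM in the monocyte libraries. The 9 monocyte marker genes summed to 291.1 to 1051 CPM in macrophages and 6775 to 11080 CPM in monocytes. Among the other marker lists, those of proliferation, endothelium and neutrophils also separated the cell types without overlap. The B and plasma cell, T and NK cell, epithelial, fibroblast and red blood cell lists overlapped. The 8 proliferation markers summed to 186.4 to 623 CPM in macrophages and 96.4 to 149.7 CPM in monocytes, the 5 endothelial markers to 113.5 to 258.9 CPM and 13 to 48 CPM, and the 6 neutrophil markers to 79.7 to 161 CPM and 432.3 to 810.5 CPM. Their part in the differences between macrophages and monocytes was not tested. Siglecf itself was read at 46.8 to 156.5 CPM in the Siglec F-low macrophages and at most 1.57 CPM in monocytes. It was 46.8 to 58.8 CPM in young Saline and 60.3 to 82 CPM in young ISRIB macrophages. Old Saline macrophages gave 51.55 to 119.8 CPM and old ISRIB macrophages 101.1 to 156.5 CPM. The part of this shift in the age and ISRIB results was not tested. Ribosomal protein genes took 1.46% to 1.98% of the counts of macrophages and 2.2% to 4.36% of those of monocytes.

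Of the 49 genes, 45 passed the filter on low counts in every fit. Eif4e1b, an oocyte form of the cap-binding protein, had no count in any library. Eef1a2, the form of eEF1A known from muscle and nerve, had 34 counts over all libraries, the methyltransferase gene Eef1akmt3 had 22 and the eIF3 gene Eif3j2 had 162, and these 4 genes were not tested. The others spanned a wide range of levels. TPM corrects counts for the merged length of a gene's annotated exons, which can exceed that of the transcripts present. Ranks between genes therefore also depend on the annotation. Eef1a1 had a median of 5130 TPM in monocytes and 3070 TPM in macrophages. Eef2 followed with medians of 3100 and 1610 TPM. Among the genes named for initiation Eif5a had the highest median TPM in macrophages, 617, and Eif3h the highest in monocytes, 491. The cap-binding factor Eif4e stood far lower, at a median of 16.1 TPM in monocytes and 17.7 TPM in macrophages, and the ranges of the 2 cell types overlapped. The 13 tested eIF3 subunits, which form 1 complex, ranged in macrophages from a median of 9.31 TPM for the loosely bound Eif3j1 to 228 TPM for Eif3h.

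Between macrophages and monocytes, translation factors were called in both directions, about as often as other genes and with smaller changes. The counts of the 49 genes made up 1.05% to 1.12% of all counts in the 4 macrophage groups and 1.41% to 1.53% in the 4 monocyte groups (group means). Over the mean of the 4 conditions, edgeR's quasi-likelihood test with Benjamini-Hochberg adjustment called 36 of 45 members at an adjusted p under 0.05, against 79.2% of all 13587 genes tested. The members called numbered 16 that were higher in macrophages, against 39.9% of all genes, and 20 that were lower, against 39.2% of all genes. With library totals as the only scaling the split was 12 higher and 24 lower, and none of the 36 changed sign. The median size of the change, without its sign, was 0.39 on the log2 scale for the members and 0.71 for all genes tested.

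Within single conditions the count was 30 in young Saline mice (60.0% of all genes called), 28 in young ISRIB mice (57.3%), 28 in old Saline mice (57.0%) and 27 in old ISRIB mice (59.4%). These 4 comparisons use different libraries. Called in the same direction in all 4 were 5 members higher in macrophages, 11.1% of the members against 22% of all genes, and 17 members lower, 37.8% of the members against 19.7% of all genes. The 5 were Eef2k, Eif5a, Eif1a, Eif5b and Eif3b. The 17 were Eif1, Eif5, Eif3d, Eif3e, Eif3f, Eif3h, Eif3k, Eif3m, Eif4a2, Eif4e2, Eif4e3, Eif4g3, Eif4h, Eef1a1, Eef1b2, Eef2 and Eef1akmt2. Of these lists, 4 genes rest on a single-condition call that another setting of edgeR's test ended. Eef1akmt2 in young Saline mice was lost without the filter on low counts (adjusted p = 0.0917) and without young Saline monocyte replicate 1 or 5 or young Saline macrophage replicate 3, 4 or 5 (0.0922 to 0.143). Eif5 was lost without the filter in old Saline (0.0601) and old ISRIB mice (0.0647), without old Saline monocyte replicate 4 (0.102) or macrophage replicate 2 (0.0521), and without old ISRIB monocyte replicate 4 (0.114) or macrophage replicate 5 (0.0525). Eif4e2 in old Saline mice was lost without the filter (0.0595) and without old Saline macrophage replicate 3 (0.0577) or 5 (0.0695), and Eif1a in old ISRIB mice without old ISRIB monocyte replicate 2 (0.052). The comparison across roles is drawn in the plot of log2 changes by role.

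**Figure D1:**
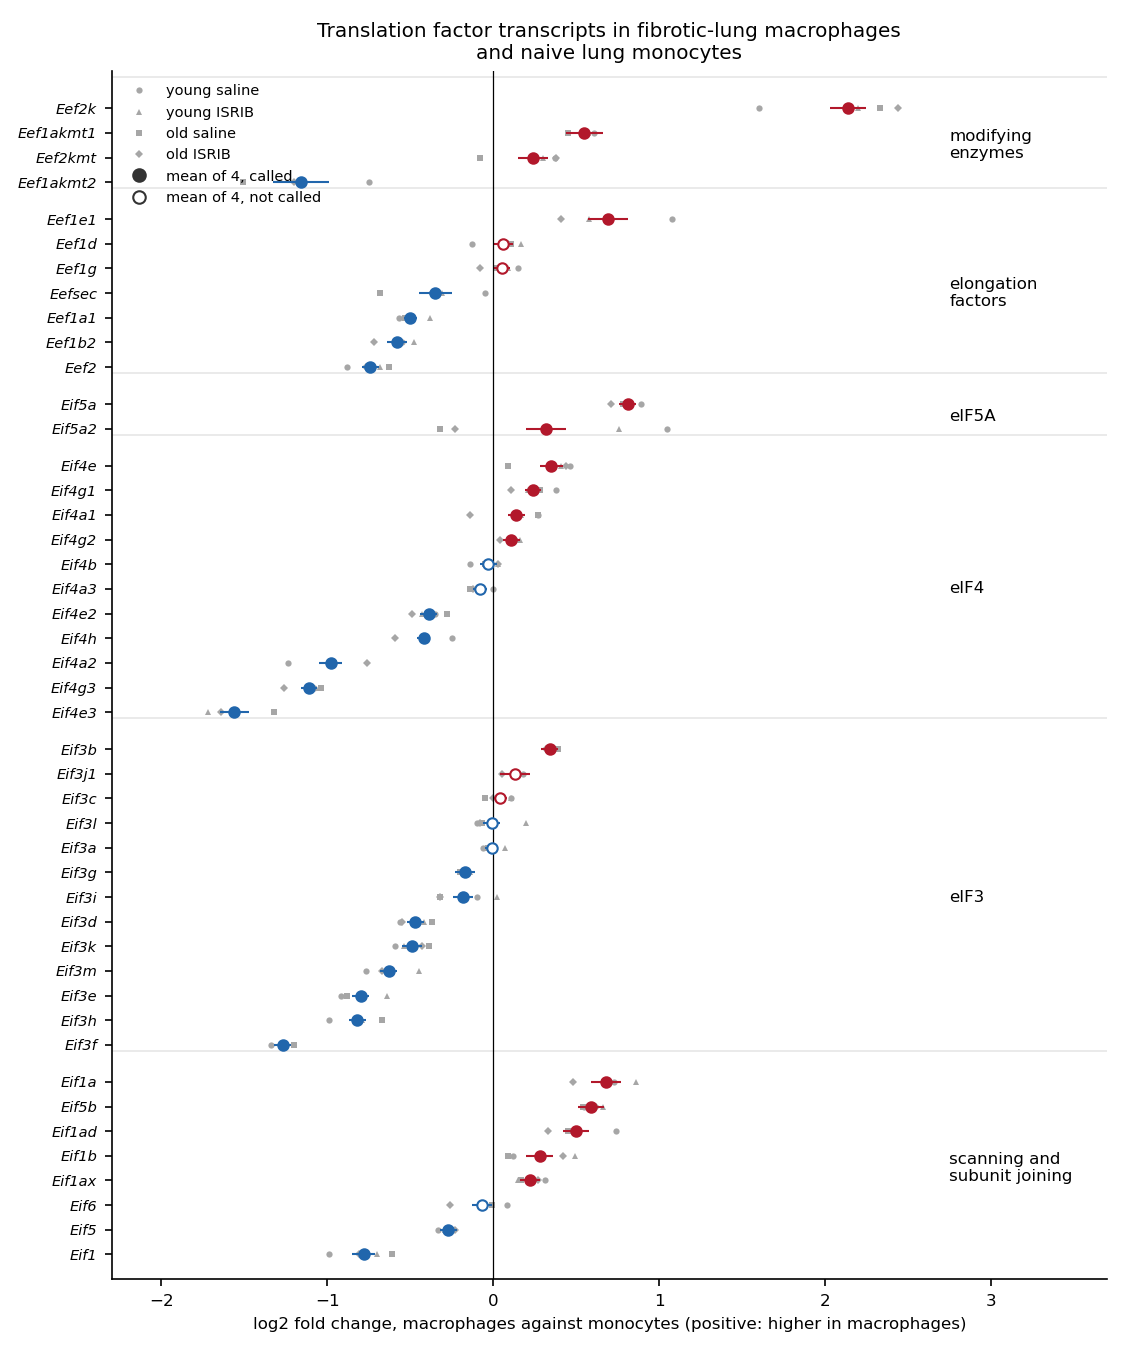
Log2 fold change of each of the 45 tested factors, macrophages against monocytes, grouped by role. Large points show the mean of 4 conditions with its standard error (filled where called at an adjusted p under 0.05), small grey points the 4 conditions. Eef2k sits farthest to the right at 2.14 and Eif4e3 farthest to the left at -1.56, and the eIF3 subunits spread from -1.27 (Eif3f) to 0.34 (Eif3b).

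Eef2k, the kinase that inhibits eEF2, showed the largest change of any member. The gene (ENSMUSG00000035064) lies at chr7:120842831-120907450 on the plus strand of GRCm38. Its level, in CPM scaled by edgeR's TMM factors over all libraries, ran from 4.29 to 10.5 with a median of 6.25 in the 20 monocyte libraries and from 16.5 to 40.6 with a median of 29.4 in the 19 macrophage libraries. Every macrophage library lay above every monocyte library. The log2 change was 2.14 ± 0.11 (SE), 4.42-fold, with an adjusted p of 5.03e-21 by edgeR's quasi-likelihood test. By condition it was 1.60 in young Saline, 2.20 in young ISRIB, 2.33 in old Saline and 2.44 in old ISRIB mice. Its substrate eEF2 moved the other way: Eef2 had a median of 3020 CPM in monocytes and 1780 CPM in macrophages, without overlap, a log2 change of -0.74 ± 0.05.

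The other enzymes that modify elongation factors were read at low levels and did not move together. Eef1akmt2, a lysine methyltransferase of eEF1A at chr7:132827457-132852673 on the minus strand, ranged from 3.88 to 10.4 CPM in monocytes and 1.45 to 8.01 CPM in macrophages, with medians of 6.09 and 2.74 CPM. Its log2 change was -1.16 ± 0.17 with an adjusted p of 6.75e-08. The libraries overlapped because 2 young Saline macrophage libraries, at 5.76 and 8.01 CPM, lay within the monocyte range. Eef1akmt1, another eEF1A methyltransferase, was higher by 0.55 and Eef2kmt, an eEF2 methyltransferase, by 0.24 on the log2 scale. Eef2kmt shares 472 exonic bases with Alg1 on the other strand, and its call was lost with library totals as the only scaling (adjusted p = 0.0828).

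Among the members listed as elongation factors, 4 of 7 tested fell and 1 rose, against 39.2% of all genes called lower and 39.9% higher. Eef1a1 fell by 0.50, Eef1b2, the exchange factor subunit eEF1B alpha, fell by 0.58 and Eefsec, which delivers selenocysteine, fell by 0.35 on the log2 scale. Eef1a1 ranged from 3170 to 5080 CPM in monocytes and from 2400 to 3160 CPM in macrophages, so the lowest monocyte library lay just above the highest macrophage library. The other subunits of the same exchange factor gave 0.05 for Eef1g (adjusted p = 0.381) and 0.06 for Eef1d (adjusted p = 0.382). Eef1e1, known also as AIMP3, a scaffold of the aminoacyl-tRNA synthetase complex, was the member that rose, by 0.69. In young Saline mice its 5 macrophage libraries read 12.7, 17.1, 17.4, 17.7 and 17.9 CPM against 5.16, 5.68, 7.97, 9.72 and 10.6 CPM in the monocytes. Those groups did not overlap, whereas the groups of the other conditions did.

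The eIF3 subunits split within 1 complex: 8 of 13 tested subunits fell, 1 rose and 4 were not called. Of all genes tested, 39.2% were called lower and 39.9% higher. Eif3f, at chr7:108934417-108942951 on the plus strand, had the largest fall. It ranged from 342 to 668 CPM with a median of 402 in monocytes and from 146 to 213 CPM with a median of 171 in macrophages. No libraries overlapped, and the log2 change was -1.27 ± 0.05 (adjusted p = 3.83e-23). Without young Saline monocyte replicate 4, which held the value of 668 CPM, it was -1.22. Eif3h fell by 0.82, Eif3e by 0.80, Eif3m by 0.63, Eif3k by 0.49 and Eif3d by 0.47, and smaller falls passed the test for Eif3i (0.18) and Eif3g (0.17).

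Other subunits gave values near 0 or above. Eif3a, which with Eif3c anchors the complex, gave -0.01 (adjusted p = 0.854) and Eif3c gave 0.04 (adjusted p = 0.335), while Eif3l gave -0.01. Eif3b, the scaffold that binds eIF3i and eIF3g, rose by 0.34 ± 0.05. Per length, Eif3b had medians of 157 TPM in monocytes and 165 TPM in macrophages, whereas Eif3f had 473 and 173 TPM and Eif3h 491 and 228 TPM. In monocytes Eif3f and Eif3h thus stood well above Eif3b in TPM, and in macrophages the 3 lay closer together. Eif3j1 was not called (0.13, adjusted p = 0.186), and it shares 541 exonic bases with Spg11 on the other strand.

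Of the 8 members listed under scanning and joining, 5 were called higher and 2 lower in macrophages, against 39.9% and 39.2% of all genes. Single conditions gave 3 or 4 of the 8 higher and 2 lower. The 5 that were higher were Eif1a, a form of eIF1A, by 0.68, Eif5b by 0.59, Eif1ad by 0.50, the Eif1 paralog Eif1b by 0.28 and the X-linked eIF1A gene Eif1ax by 0.22 on the log2 scale. Eif1, which keeps the scanning ribosome open, fell by 0.78, and Eif5, the GTPase activator of eIF2, fell by 0.27. Eif1 ranged from 225 to 493 CPM in monocytes and 136 to 204 CPM in macrophages, without overlap. Eif6, which keeps large subunits apart from small ones, was not called (-0.07, adjusted p = 0.329). Eif1ad shares 428 exonic bases with Banf1 and Eif5b 419 with Rev1, each on the other strand.

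Both eIF5A genes were called higher over the mean of the 4 conditions. Eif5a, at chr11:69916714-69921958 on the minus strand, ranged from 243 to 388 CPM in monocytes and 435 to 649 CPM in macrophages, without overlap, and rose by 0.81 ± 0.05. Its rarer paralog Eif5a2, at chr3:28781276-28798846 on the plus strand, rose by 0.32 ± 0.12. That mean joins unlike values: 1.05 in young Saline, 0.76 in young ISRIB, -0.32 in old Saline and -0.23 in old ISRIB mice. With library totals as the only scaling, the call for the mean was lost (adjusted p = 0.0613).

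In the eIF4 group, paralogs of the same factor went apart. Eif4e3, a cap-binding protein with an atypical pocket at chr6:99625135-99666771 on the minus strand, ranged from 91.1 to 201 CPM in monocytes and 24.0 to 50.8 CPM in macrophages. It fell by 1.56 ± 0.09 (adjusted p = 1.57e-19), or by 1.49 without young Saline monocyte replicate 4. Eif4g3, a scaffold paralog of Eif4g1 at chr4:137993022-138208508 on the plus strand, ranged from 344 to 538 CPM in monocytes and 179 to 246 CPM in macrophages and fell by 1.11 ± 0.05 (adjusted p = 1.4e-23). Eif4a2, the second eIF4A helicase, at chr16:23107444-23114136 on the plus strand, ranged from 300.2 to 517 CPM and 159 to 250 CPM and fell by 0.98 ± 0.07. For each of these 3 genes every macrophage library lay below every monocyte library.

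The other members of the group moved less. Eif4e rose by 0.35 and Eif4g1 by 0.24, and small rises passed the test for Eif4a1 (0.14) and the cap-independent scaffold Eif4g2 (0.11). The last 2 calls were lost with library totals as the only scaling, with adjusted p of 0.221 and 0.507. Eif4e2, a cap-binding protein that represses translation, fell by 0.39 and the helicase cofactor Eif4h by 0.42. Eif4b, the other helicase cofactor, gave -0.03 (adjusted p = 0.508) and Eif4a3, the helicase of the exon junction complex, -0.08 (adjusted p = 0.081). With library totals as the only scaling, both were called lower (Eif4b adjusted p = 0.0216, Eif4a3 -0.17 with 0.00178), as were Eif6 (-0.15, 0.0292) and Eif3a (-0.09, 0.0492). Eif4a3 was also called without young ISRIB macrophage replicate 3 (0.0471) or old Saline macrophage replicate 2 (0.0401), and the call of Eif4g2 was lost without the filter on low counts (0.111). The plot of levels by library shows Eif4e3, Eif4g3 and Eif4a2 beside Eef2k, Eif3f, Eef1akmt2 and both eIF5A genes. In it Eef1akmt2 and Eif5a2 overlapped between the cell types, and the others did not.

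**Figure D2:**
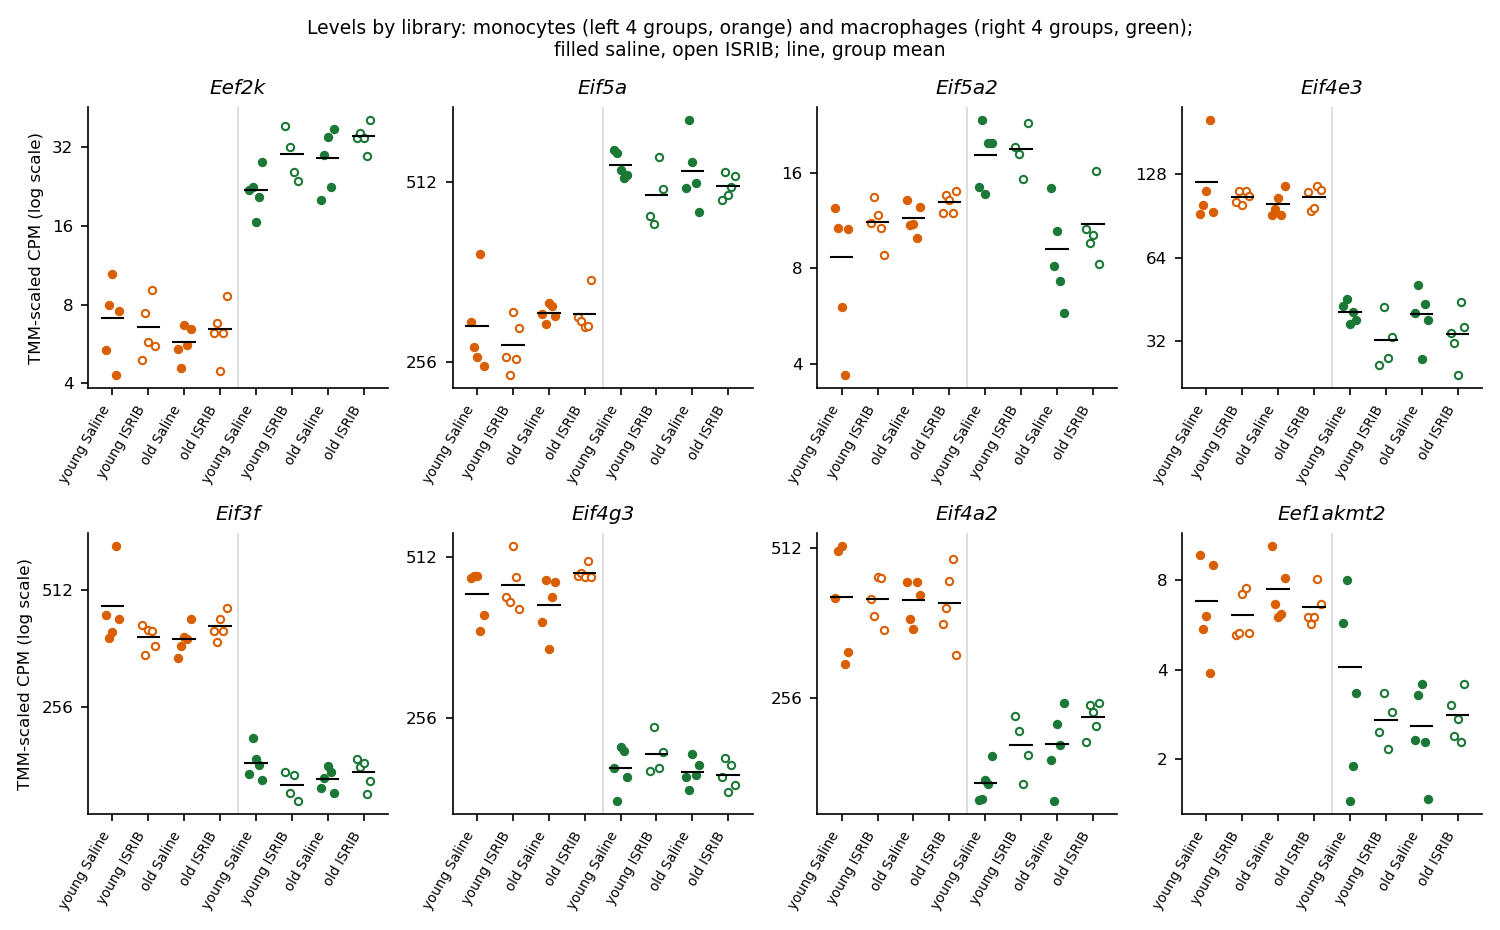
TMM-scaled CPM on a log axis in each of the 39 libraries for 8 factors, by group (monocytes orange, macrophages green, filled saline, open ISRIB, black line the group mean). Eef2k and Eif5a are higher in all macrophage libraries, Eif4e3, Eif3f, Eif4g3 and Eif4a2 lower in all of them, Eef1akmt2 overlaps, and Eif5a2 is highest in young macrophages.

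The ratio of 2 paralogs within a library does not depend on how libraries are scaled. The log2 ratio of counts was compared for 7 pairs in 5 comparisons by two-sided permutation within strata, with Benjamini-Hochberg adjustment over all 35 tests. Between macrophages and monocytes 6 of 7 pairs passed, 5 of them with a permutation p of 1e-05, the smallest value that 100000 resamples can give (adjusted p = 7e-05). The Eif4e/Eif4e3 ratio ranged from -3.17 to -1.29 in monocytes and from -0.52 to 0.66 in macrophages, a difference of 1.91. The Eif4g1/Eif4g3 ratio ranged from -0.75 to -0.01 in monocytes and from 0.73 to 1.15 in macrophages, a difference of 1.35. Neither pair overlapped between the cell types. A ratio of counts does not say which paralog is the more abundant, since the transcripts differ in length: per length, the group values in monocytes were 138.4 to 164 TPM for Eif4g1 and 131.1 to 144.1 TPM for Eif4g3, and in macrophages 150.3 to 156.8 TPM and 50.7 to 56.9 TPM. By group mean, Eif4g1 thus stood above Eif4g3 in all 8 groups, by more in macrophages. Over single monocyte libraries the ranges overlapped, 93.6 to 190 TPM for Eif4g1 and 102 to 178 TPM for Eif4g3.

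For the helicases, Eif4a1/Eif4a2 had a median of -0.20 in monocytes and 0.94 in macrophages and differed by 1.12, with overlap through 1 old ISRIB monocyte library at 0.71. Eif1/Eif1b fell by 1.05, with medians of 3.22 in monocytes and 2.13 in macrophages. Eif4e/Eif4e2 rose by 0.74, and Eif1a/Eif1ax rose by 0.49 with a permutation p of 2e-05 and an adjusted p of 0.000117. Eif3j1/Eif3j2 differed by 0.62 with an adjusted p of 0.243 in the same permutation test, on the few counts of Eif3j2. The plot of paralog ratios shows 4 of the pairs.

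**Figure D3:**
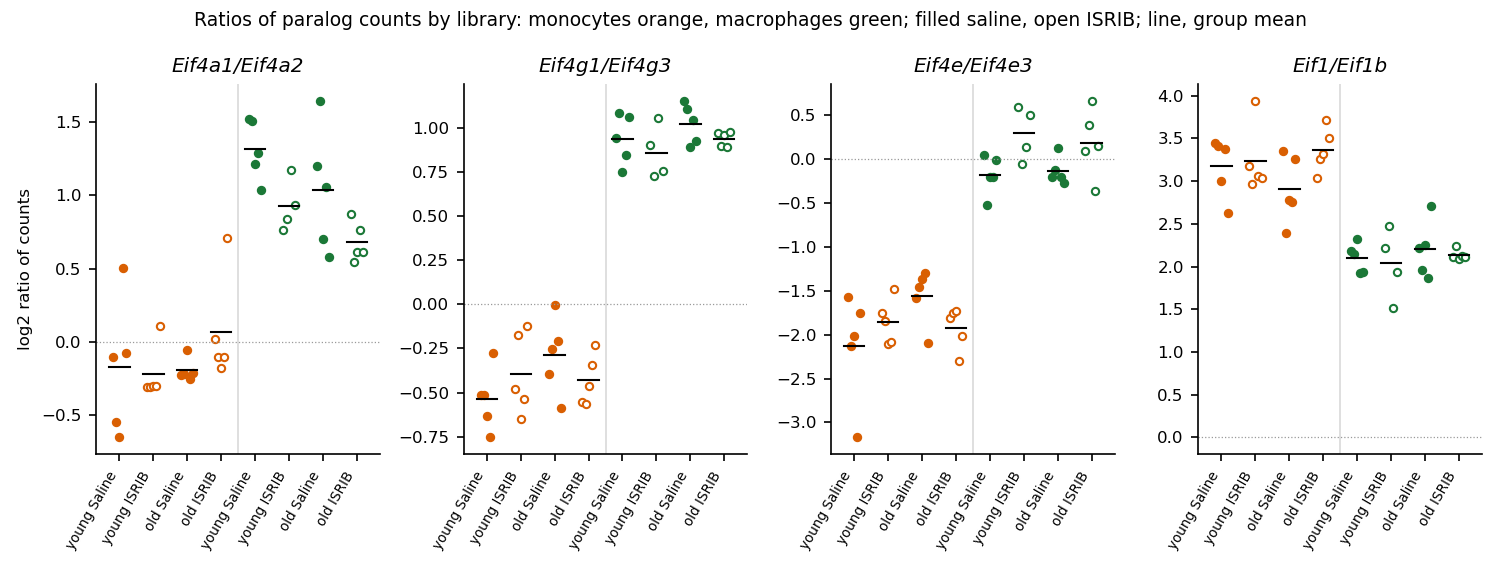
Log2 ratio of the counts of 2 paralogs in each library, by group (monocytes orange, macrophages green, filled saline, open ISRIB, black line the group mean). Eif4g1/Eif4g3 and Eif4e/Eif4e3 do not overlap between cell types, and within macrophages Eif4a1/Eif4a2 is lower and Eif4e/Eif4e3 higher in the ISRIB groups, with overlap.

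Of the 9 members known as TOP mRNAs, 6 were called lower in macrophages and 0 higher, against 39.2% and 39.9% of all genes: Eef1a1, Eef1b2, Eef2, Eif3e, Eif3f and Eif3h fell, and Eef1d, Eef1g and Eif4b were not called. Without young Saline monocyte replicate 4, Eef1d was called higher (0.11, adjusted p = 0.0424 by edgeR), and with library totals as the only scaling Eif4b was called lower (-0.11, adjusted p = 0.0216). The median log2 change of the 9 was -0.58, beside 0 for all genes tested. The TOP partners did likewise, with Pabpc1, the poly(A)-binding protein, at -0.87, Rps6, a protein of the small ribosomal subunit, at -1.01 and Tpt1, a small protein of growing cells, at -0.78. Ribosomal protein genes, whose mRNAs are also TOP mRNAs, took the lower share of macrophage counts given above. Since mRNA was measured, nothing here reads how often these mRNAs were translated.

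The start regions of the members were compared for the palindrome CACGTG, the E-box bound by basic helix-loop-helix factors such as Myc. Members were called between cell types about as often as all genes tested (80.0% against 79.2%). The RefSeq promoter table for GRCm38.p6 covers 250 bases before and 50 after an annotated start and holds 36 of the 49 members, 35 of them tested. The motif, which reads the same on both strands, stood in the window of 12 of the 35 (34.3%), against 11.7% of 9580 tested protein-coding genes. Counted per promoter and not per gene, which is not a like measure, it stood in 7.15% of all 32851 promoters of this length. Members were split by their call over the mean of the 4 conditions. The motif was found for 7 of 13 members called higher in macrophages (53.8%, against 12.9% of all such genes). It was found for 4 of 16 called lower (25%, against 10.7%) and 1 of 6 not called. Of the 7, Eif5a2 and Eif4a1 lost their call with library totals as the only scaling (edgeR adjusted p of 0.0613 and 0.221). The change of Eif5a2 was negative in both old conditions. Members had 1.31 annotated promoters on average and the tested genes 1.28, while the 13 members that were higher had 1.62, and more promoters give more chances of a match. These shares are descriptions without a test. The windows below show the motif in capitals within its 30 bases on the gene's strand. The 7 members called higher in macrophages over that mean come first, and then 4 called lower.
Eef2k (chr7:120842788-120842817, plus strand, motif 31 bases before a start): cccggggacggcCACGTGagcccgggcgtg
Eif5a (chr11:69921443-69921472, minus strand, motif 74 bases before a start): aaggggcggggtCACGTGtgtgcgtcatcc
Eif5a2 (chr3:28781148-28781177, plus strand, motif 117 bases before a start): cagggcgagcttCACGTGacggggcgggac
Eif4e (chr3:138527192-138527221, plus strand, motif 64 bases before a start): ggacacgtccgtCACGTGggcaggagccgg
Eif4g1 (chr16:20672661-20672690, plus strand, motif 54 bases before a start): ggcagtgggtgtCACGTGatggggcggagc
Eif4a1 (chr11:69672595-69672624, minus strand, motif 189 bases before a start): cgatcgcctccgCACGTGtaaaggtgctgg
Eif1b (chr9:120492570-120492599, plus strand, motif 24 bases before a start): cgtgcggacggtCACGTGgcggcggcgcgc
Eef2 (chr10:81176576-81176605, plus strand, motif 43 bases before a start): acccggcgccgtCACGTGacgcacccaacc
Eif3f (chr7:108934335-108934364, plus strand, motif 68 bases before a start): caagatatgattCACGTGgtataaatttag
Eif3k (chr7:28981915-28981944, minus strand, motif 44 bases before a start): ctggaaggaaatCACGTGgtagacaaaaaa
Eif4h (chr5:134639488-134639517, minus strand, motif 96 bases before a start): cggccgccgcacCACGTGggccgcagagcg
Eef2k and its substrate Eef2 both held the motif close to the start, and their transcripts moved in opposite directions. A link between the motif and the changes was not tested.

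Of 45 partner genes that regulate these factors or act beside them, 13 rose and 21 fell, against 39.9% of all genes called higher and 39.2% lower, so the share called was close to that of all genes. Gspt2, a release factor GTPase, had the largest change: it ranged from 2.57 to 14.5 CPM in monocytes and from 0 to 2.42 CPM in macrophages, a log2 change of -3.82 ± 0.33, while its paralog Gspt1 rose by 0.43. Paip2b, which keeps poly(A)-binding protein off mRNA, rose by 1.96, from a median of 6.03 to 24.4 CPM. Pdcd4, an inhibitor of eIF4A, fell by 1.79, from a median of 112 to 31.2 CPM, and Eif4ebp2, a repressor that binds eIF4E, fell by 1.31. Mknk1 and Mknk2, the kinases that phosphorylate eIF4E, fell by 0.66 and 1.0, whereas Mtor gave 0.07 (adjusted p = 0.288). Denr, which acts in ribosome recycling and reinitiation, rose by 1.13. In the enzymes that build diphthamide on eEF2, Dph1, Dph2, Dph6, Dph7 and Dnajc24 rose by 0.45 to 0.79, while Dph3 and Dph5 were not called.

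Age changed 1 translation factor in macrophages, Eif5a2. In Saline macrophages, where 1.16% of all genes were called between old and young mice, the 5 young libraries read 13.7, 14.4, 19.8, 19.8 and 23.5 CPM and the 5 old libraries 5.80, 7.30, 8.12, 10.5 and 14.3 CPM. The groups overlapped by the highest old library alone. The log2 change was -0.98 ± 0.23 with an adjusted p of 0.0266 by edgeR's quasi-likelihood test, and leaving out 1 of the 10 libraries gave adjusted p of 0.00711 to 0.114, above the threshold for 6 of them. In ISRIB macrophages no member was called by edgeR, DESeq2 or limma voom (0.937% of all genes by edgeR, and 4 members at an unadjusted p under 0.05): the 4 young libraries read 15.3, 18.3, 19.3 and 22.97 CPM, the 5 old libraries 8.28, 9.63, 10.2, 10.6 and 16.3 CPM, and the change was -0.79 with an adjusted p of 0.122. Again 1 old library reached into the young range.

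Over the mean of both treatments the change of Eif5a2 was -0.89 ± 0.17, 1.85-fold lower in old macrophages, with an adjusted p of 0.00182, and it was the only member called by edgeR, against 4.86% of all genes. That call was kept with each of the 19 macrophage libraries left out in turn. Leaving out old Saline macrophage replicate 2 added Eif4a2 (0.26, adjusted p = 0.0207), and 1 further member was also called without old Saline replicate 1 or replicate 5. Eif5a, the abundant paralog, gave 0.01, and the other 44 members lay between -0.30 and 0.31. The median size of change was 0.07 for the members and 0.13 for all genes tested.

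In monocytes Eif5a2 was not called with age. No member was called by edgeR between old and young monocytes in Saline mice (0.0247% of all genes called), in ISRIB mice (0 genes called) or over both treatments (0.123%), and DESeq2 and limma voom called none either. At an unadjusted p under 0.05 there were 3, 5 and 2 members. Eif5a2 read 3.68, 6.04, 10.7, 10.7 and 12.4 CPM in young Saline monocytes and 9.97, 10.9, 11, 12.5 and 13.2 CPM in old ones, so the old libraries lay within or just above the young range. The age effect on Eif5a2 differed between macrophages and monocytes by -1.18 ± 0.23 on the log2 scale (adjusted p = 0.00593, edgeR), the only member for which the difference was called, against 0.743% of all genes. The group means were 8.70 to 12.9 CPM in the 4 monocyte groups, 9.21 and 11 CPM in old macrophages and 18.2 and 19 CPM in young macrophages.

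Sums of markers of other cell types also moved with age, and which cells these transcripts came from was not tested. The 8 B and plasma cell markers summed to 6.21 to 29.3 CPM in young Saline and 7.62 to 22.6 CPM in young ISRIB macrophages, and to 20.8 to 413.5 CPM and 151.2 to 595.1 CPM in the old ones. The 9 monocyte markers summed to 687.1 to 1051 CPM in young Saline, 486.1 to 731.3 in young ISRIB, 384 to 666.9 in old Saline and 291.1 to 442.3 CPM in old ISRIB macrophages. The 7 T and NK cell markers summed to 0.905 to 3.13 CPM in young Saline and 2.24 to 3.36 CPM in young ISRIB macrophages and to 3.57 to 9.87 CPM and 3.66 to 18.4 CPM in the old ones, without overlap between ages. The part of these lists in the fall of Eif5a2 was not tested. In bulk samples such as these, fewer cells of a type and less RNA per cell cannot be told apart.

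By edgeR's quasi-likelihood test no translation factor passed the threshold with ISRIB, and other tools called 1. By edgeR, 0 of 45 members were called in young macrophages, in old macrophages, in young monocytes and in old monocytes, and in each of these comparisons 0 genes of the whole table were called. DESeq2 and limma voom called 0 members in each as well, and 7, 3, 3 and 1 members had an unadjusted p under 0.05. Over both ages edgeR called 0.830% of all genes in macrophages and 0 in monocytes, in each case with 0 members, and 11 and 2 members had an unadjusted p under 0.05. For macrophages over both ages DESeq2 and limma voom each called 1 member, Eif5, and for monocytes 0. The difference between the ISRIB effects in old and young mice called 0 members and 0 genes in either cell type, with 0 members at an unadjusted p under 0.05 in macrophages and 6 in monocytes.

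The member with the smallest adjusted p was Eif5, at chr12:111538016-111546752 on the plus strand. Young macrophages read 201 to 247 CPM with Saline and 249.6 to 291 CPM with ISRIB, and old macrophages 232 to 273 CPM and 266 to 295 CPM. The young groups did not overlap and the old groups did. The log2 change over both ages was 0.20 ± 0.05 with an adjusted p of 0.0688 in edgeR, 0.0215 in DESeq2 and 0.0485 in limma voom. Eef2k changed by 0.37 ± 0.12 (adjusted p = 0.127) and Eif4e3 by -0.28 ± 0.12 (adjusted p = 0.211). The 45 changes lay between -0.28 and 0.37, as the plot of age and ISRIB changes shows.

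**Figure D4:**
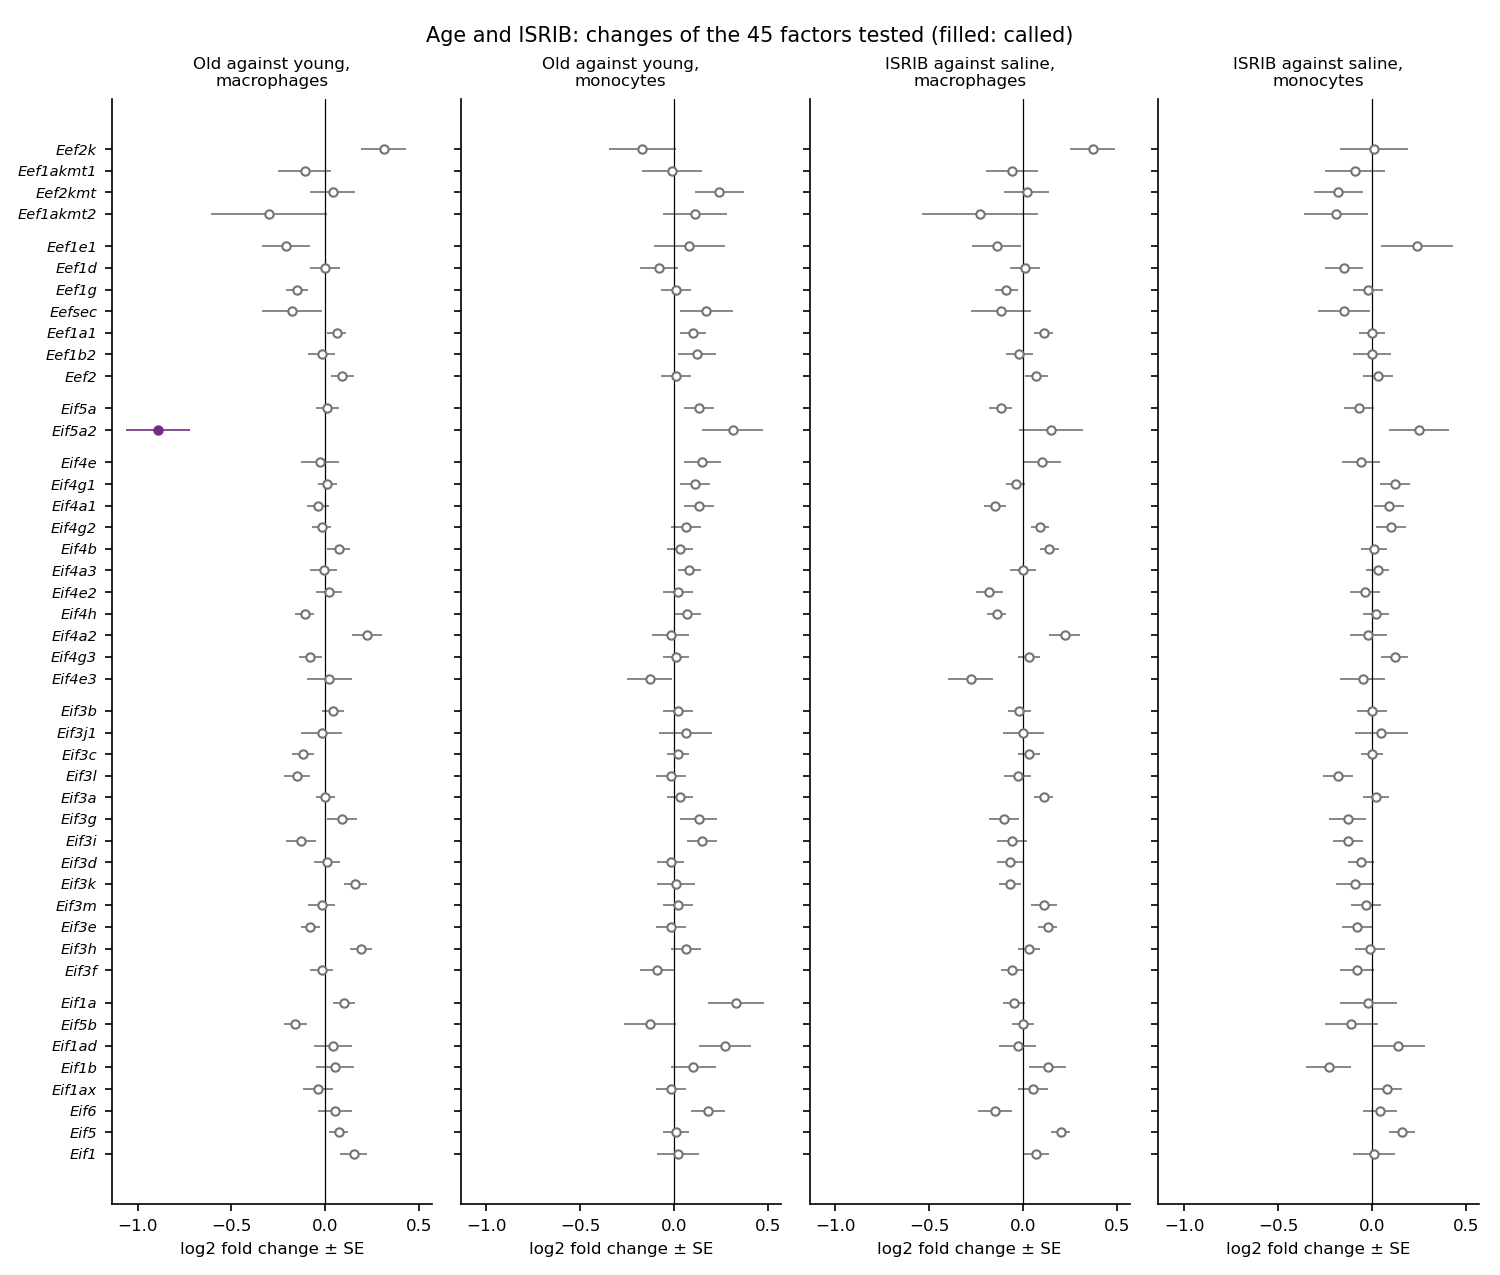
Log2 fold change with standard error of the 45 tested factors, old against young (mean of both treatments) and ISRIB against saline (mean of both ages), in macrophages and monocytes. Eif5a2 with age in macrophages (-0.89, filled) is the only value called by edgeR's quasi-likelihood test, and the ISRIB changes in macrophages lie between -0.28 and 0.37.

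Ratios of paralogs gave 2 differences with ISRIB in macrophages. The Eif4a1/Eif4a2 log2 ratio was 1.32 ± 0.21 (SD, n = 5) in young Saline and 0.93 ± 0.18 (n = 4) in young ISRIB macrophages, and 1.04 ± 0.42 (n = 5) and 0.68 ± 0.13 (n = 5) in old ones. It fell by 0.37 with an exact permutation p of 0.00532 and an adjusted p of 0.0266. The Eif4e/Eif4e3 ratio was -0.18 ± 0.22 and 0.30 ± 0.31 in young and -0.13 ± 0.15 and 0.19 ± 0.38 in old macrophages, and it rose by 0.40 with an exact permutation p of 0.00611 and an adjusted p of 0.0267. In both pairs Saline and ISRIB libraries overlapped. Leaving out 1 of the 19 libraries left 0 to 3 pairs past the threshold, with 0 without young ISRIB replicate 1, old ISRIB replicate 2 or old ISRIB replicate 3.

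No ratio passed for ISRIB in monocytes or for age in either cell type, where the smallest adjusted p of the exact permutation tests was 0.116. With ISRIB, Eif4a1/Eif4a2 moved towards the monocyte values and Eif4e/Eif4e3 away from them. The 8 proliferation markers summed to 402 to 486.2 CPM in young Saline and 186.4 to 513.4 CPM in young ISRIB macrophages, and to 255.3 to 623 CPM and 222.1 to 320.1 CPM in the old ones, and their part in the ratios was not tested. Among the partners, Paip2b was the only gene called with ISRIB: it was 20.4 ± 2.36 CPM (SD, n = 5) and 27.7 ± 1.99 CPM (n = 4) in young and 22.3 ± 3.07 CPM (n = 5) and 31.8 ± 4.58 CPM (n = 5) in old macrophages. Its log2 change was 0.48 ± 0.10 with an adjusted p of 0.0205 in edgeR, which other settings moved between 0.00172 and 0.148.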

How the data were processed

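RNA was sequenced in 39 libraries made from 3 ng of total RNA with polyA selection, per the labels' protocols. The authors deposited unnormalised read counts for 43430 Ensembl genes in 1 table. The submitters' processing notes name Trimmomatic 0.36, STAR 2.6.0, HTSeq 0.11.2 and the build mm10. The strand setting is not given in the sources used here, so reads of genes that overlap on opposite strands cannot be told apart. The handling of reads that match several places is not given either, so their part in the counts of similar genes is not known. Symbols, positions and exon lengths came from GENCODE vM21 (GRCm38), which matched 42546 IDs, and promoter sequences from RefSeq (GRCm38.p6). The deposited counts were tested with edgeR 4.0.16 (R 4.3.3): TMM scaling, filterByExpr (minimum count 10), quasi-likelihood test, 1 mean per group, Benjamini-Hochberg adjustment over all genes tested, called at an adjusted p under 0.05. Contrasts between cell types used all 39 libraries (13587 genes), others the 19 macrophage (12171 genes) or 20 monocyte libraries (12170 genes). Levels are CPM scaled by TMM over all libraries, and marker sums are CPM of library totals. TPM are counts per merged length of a gene's annotated exons. Paralog ratios were log2 ratios of counts plus 0.5, permuted exactly within a cell type and with 100000 resamples across cell types. The tests were checked on simulated data. Members, role lists, partners and markers were chosen with earlier results of these data known. Full values per library are given for up to 6 called members per comparison with the largest change whose mean reached 5 CPM in 1 of the groups, and up to 5 partners were named by the same rule. Any member could be named, with its values. Other partners, Eef1e1 outside young Saline mice, and Eif5 were described after their values were seen. Alternatives were RLE factors, library totals alone, no filter, DESeq2 1.42.0, limma voom (limma 3.58.1), a replicate block, a ratio pseudocount of 5, 1 fit of all libraries and leaving out each library.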

Additional observations from a re-analysis of the deposited data

Results flagged for a closer look

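In 9 factors and 7 paralog ratios, each group of 4 or 5 libraries was checked for a library far from the others by Dixon's ratio of gap to range, and 10 of 128 checks passed the 95% value, where chance gives about 1 in 20. Young Saline monocyte replicate 4, the shallowest library, was high for Eif3f (668 CPM, the others 386 to 442) and Eif4e3 (201 CPM, the others 92.0 to 112). Eef1e1 was low in young Saline macrophage replicate 3 (12.7 CPM, the others 17.1 to 17.9). Eif3h was high in old ISRIB monocyte replicate 5 (302 CPM, the others 230.1 to 250.2) and Eif4g3 in old ISRIB monocyte replicate 4 (505 CPM, the others 470.2 to 479). The log2 Eif4a1/Eif4a2 ratio was high in young ISRIB monocyte replicate 5 (0.10, the others -0.31 to -0.30), old Saline monocyte replicate 3 (-0.06, the others -0.26 to -0.22) and old ISRIB monocyte replicate 5 (0.71, the others -0.18 to 0.02). The log2 Eif1/Eif1b ratio was high in young ISRIB monocyte replicate 3 (3.93, the others 2.96 to 3.18) and old ISRIB macrophage replicate 2 (2.24, the others 2.09 to 2.13). The age effect on Eif5a2 differed between macrophages and monocytes by -1.18 on the log2 scale, as a test of the difference itself.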

How the results depend on the processing

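The counts of members called between macrophages and monocytes stayed within 1.5 times of the values given under every alternative run, and no value changed sign past a threshold. For age in macrophages, the 1 call in Saline mice became 0 to 1 with 1 library left out (0 without young Saline replicates 2, 4 or 5 or old Saline replicates 3, 4 or 5). The 0 calls in ISRIB mice became 1 without the filter on low counts and 0 to 1 with 1 library left out (1 without old ISRIB replicate 4, Eif5a2 at adjusted p = 0.0481 by edgeR). Over both treatments there were 2 calls without the filter, 2 with DESeq2 and 1 to 2 with 1 library left out. For ISRIB in macrophages over both ages, the 0 calls became 1 with DESeq2 and 1 with limma voom (Eif5) and 0 to 2 with 1 library left out (2 without young ISRIB replicate 3 or old Saline replicate 5). With the replicate block there was 1 call (Eef2k, adjusted p = 0.0492 by edgeR), and the block moved no other count of members by over 1.5 times. The labels' replicate numbers showed no clear pairing of libraries, in a check that cannot exclude one. Over 57 pairs of the same number the median correlation of deviations was -0.005, and over 228 pairs of other numbers -0.0005. Of the 57, 10 exceeded 0.1 and the largest was 0.36. Without a test against chance, 12 of 39 libraries correlated best with their own number. Paralog ratios past the threshold numbered 0 to 1 for age in macrophages (1 without old Saline replicate 2) and 0 to 3 for ISRIB in macrophages with 1 library left out. The causes were not tested. Too few counts were read of Eif3j2, Eef1a2 and Eef1akmt3 for a test.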
